A study of Mus musculus with 10 samples.

Results

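The genes described here are 7 genes that B lymphocytes use to build and control their antigen receptor: Cd79a, Cd79b, Ms4a1, Pax5, Blnk, Ebf1 and Cd22. They were chosen by symbol, each matched 1 row of the deposited expression table, and they are 7 of the 24011 rows of that table that carry a gene symbol. RNA was sequenced from whole liver of 10 male C57BL/6 mice, 8 to 12 weeks old at gene transfer, on day 6 after an adenovirus was injected into the tail vein. The AdVEGF group of 5 mice received a serotype 5 adenovirus that expresses VEGF-A165 from the CMV promoter, and the AdCMV group of 5 mice received an empty adenovirus with the CMV promoter and no transgene, so that both groups carried a vector. Livers were perfused with PBS before they were frozen, and ribosomal RNA was removed from the RNA before sequencing. The comparison asks how RNA of liver tissue differs when VEGF is expressed, here for genes of the B cell lineage.

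B cells recognise antigen through a membrane immunoglobulin that signals by way of a heterodimer of the Cd79a and Cd79b proteins, whose tails recruit kinases and the adaptor Blnk. Ebf1 and Pax5 are the transcription factors that set up and hold the B cell programme, while Ms4a1 (CD20) and Cd22 are surface proteins of maturing and mature B cells. The liver holds B cells among its lymphocytes, and it makes B cells in fetal life.

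The values are RPKM, the reads per kilobase of transcript, scaled by the mapped tags of the library, as the authors deposited them. The values of each library fall on whole steps, so the reads behind them and the mapped tags of the library could be recovered; between 99.917% and 99.971% of a library's values came within 0.1 of a whole read. The reads summed over all transcripts exceeded the mapped tags in every library, by 4.08% to 13.94% in AdCMV and 2.31% to 6.48% in AdVEGF mice, so some reads may count in more than 1 row, which bears on the read counts and shares given here. The libraries held 5758960 to 13494000 mapped tags in the AdCMV group and 5596560 to 8133950 in the AdVEGF group. At that depth 3 reads, the floor used here, correspond to 0.168 to 0.406 RPKM for Cd79a and to 0.0429 to 0.103 RPKM for the longer Ebf1 transcript. Pax5 and Ebf1 lie close to such limits in both groups. Cd79a does so in the AdCMV libraries and in AdVEGF replicates 1 and 5, and Cd79b and Ms4a1 in part of the AdCMV libraries. In AdVEGF replicates 2, 3 and 4 Cd79a had 9, 8 and 12 reads. Floors and intervals of read counts cover counting error only. The liver label held in every mouse: albumin (Alb) was at 7720 ± 2060 RPKM in AdCMV mice and 16700 ± 1840 RPKM in AdVEGF mice (SD, n = 5 each).

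All 7 genes had a higher mean RPKM in the AdVEGF group, and 3 of them, Cd79b, Ms4a1 and Blnk, were called higher. A gene was tested if its mean exceeded 0.5 RPKM in at least 1 group, which 5 of the 7 did (Cd79a and Ms4a1 through the AdVEGF group alone), and it was called where limma on log2(RPKM + 0.1) gave both an adjusted p (Benjamini-Hochberg) below 0.05 and a log2 fold change above 1 or below -1; this scale understates the change of low genes. Calls in this direction covered 13.0% of all 13933 genes tested, a share to set beside the counts of every list below. No member was called lower (0 in limma, 0 at an unadjusted p under 0.05 and 0 with voom), where 1.54% of all genes tested were. The summed level of the 7 genes was 2.71, 3.56, 3.33, 2.42 and 2.91 RPKM in AdCMV mice 1 to 5 and 11.1, 10.3, 10.3, 8.99 and 6.12 RPKM in AdVEGF mice 1 to 5. In bulk tissue, more cells of a type and more RNA per cell cannot be told apart.

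The deposited values shift most genes upward, which bears on every fold change given here. Over all genes tested the log2 fold changes had a median of 0.38, which was -0.00443 after median-ratio scaling between libraries. The major urinary protein (Mup) genes of hepatocytes took 36.5% ± 12.2 of the reads in AdCMV mice and 16.3% ± 7.91 in AdVEGF mice (SD, n = 5 each), and their part in the shift was not tested. Of all calls, 89.4% were higher with the deposited RPKM (1808 higher, 214 lower) and 71.2% after median-ratio scaling (1082 higher, 438 lower). After that scaling 1 of the 7 genes, Cd79b, was called higher, against 7.77% of all genes tested, and 0 were called lower, against 3.14%.

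**Figure D1:**
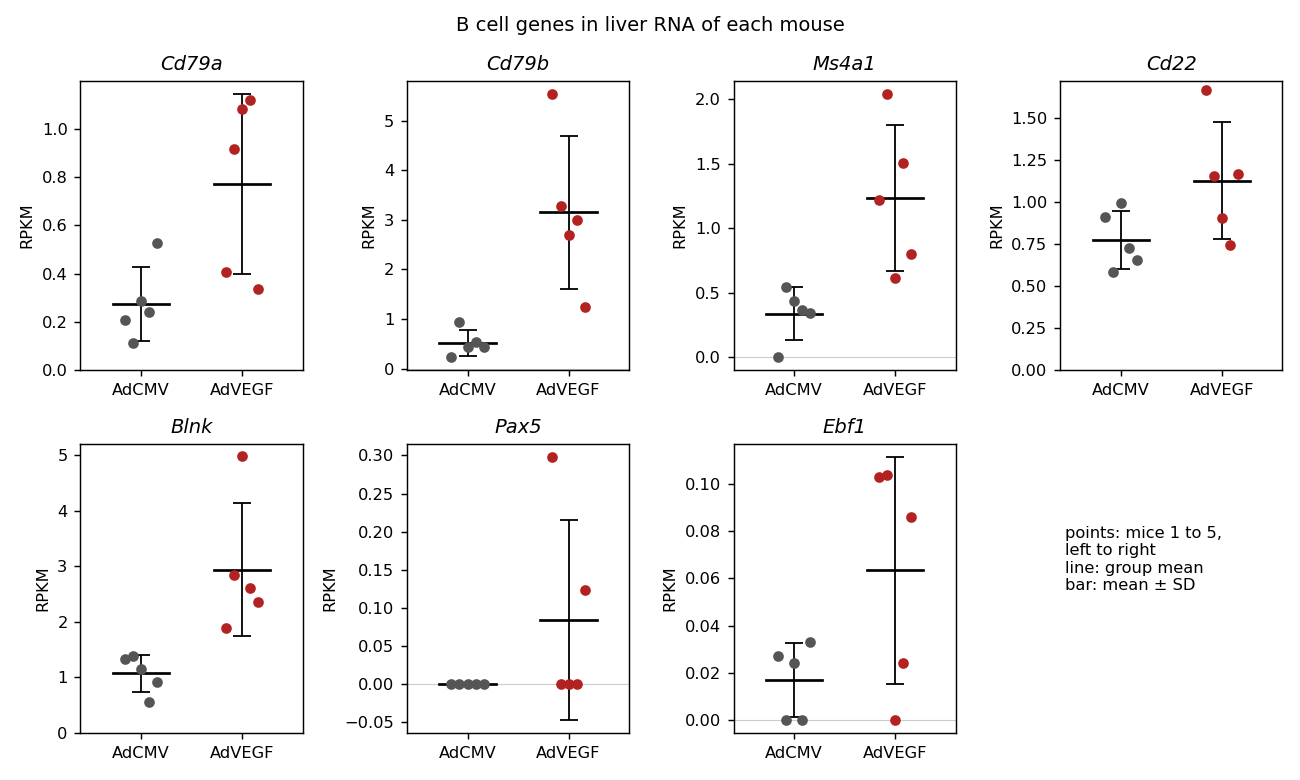
RPKM of the 7 B cell genes in each mouse (points, replicates 1 to 5 from left to right in each group), with the group mean (line) and SD (bar, n = 5). The groups do not overlap for Cd79b, Ms4a1 and Blnk, and Pax5 is at 0 in all 5 AdCMV mice.

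Cd79b, the signalling chain of the receptor also called Ig-beta, had the largest log2 fold change of the 5 members tested. It was at 0.232, 0.934, 0.427, 0.535 and 0.438 RPKM in AdCMV mice 1 to 5, from 2 to 15 reads a library. In AdVEGF mice 1 to 5 it was at 5.54, 3.28, 2.70, 3.00 and 1.25 RPKM, from 10 to 37 reads. The lowest AdVEGF mouse, replicate 5, lay above the highest AdCMV mouse, replicate 2, so that the groups did not overlap; AdVEGF replicate 1 had the highest value. The log2 fold change was 2.36 (standard error 0.37, limma adjusted p = 0.000185) with the deposited RPKM and 2.00 (standard error 0.38, limma adjusted p = 0.00219) after median-ratio scaling. The means were 0.513 ± 0.260 and 3.15 ± 1.54 RPKM (SD, n = 5 each), and the two-sided exact permutation test of their difference gave p = 0.00794, the smallest value that 5 against 5 mice can give. Cd79b was called higher under all 21 alternatives run, with log2 fold changes from 1.39 to 2.65 and limma adjusted p from 4.72e-06 to 0.0292.

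Cd79a encodes the partner chain Ig-alpha, and its values were lower and less distinct. It was at 0.209, 0.112, 0.288, 0.241 and 0.526 RPKM in AdCMV mice 1 to 5, each from 2 to 4 reads. In AdVEGF mice 1 to 5 it was at 0.405, 0.918, 1.08, 1.12 and 0.338 RPKM, from 3 to 12 reads. AdVEGF replicates 2, 3 and 4 exceeded every AdCMV mouse, while AdVEGF replicates 1 and 5 lay below AdCMV replicate 5, so the groups overlapped. The log2 fold change of 1.18 (standard error 0.43) missed the threshold with a limma adjusted p of 0.0548, and the two-sided exact permutation test gave p = 0.0397 (n = 5 each, unadjusted). After median-ratio scaling the values were 0.87 (standard error 0.37, limma adjusted p = 0.117) and, for the permutation test, an exact p of 0.0635; the latter was added after the data had been seen. Over all reads of a group, Cd79a had 14 reads in the AdCMV libraries and 35 in the AdVEGF libraries, a ratio per mapped tag of 3.27 (95% interval 1.71 to 6.58, exact conditional binomial). Single libraries decided this call: without AdCMV replicate 3, AdCMV replicate 5, AdVEGF replicate 1 or AdVEGF replicate 5 it was called higher, with log2 fold changes of 1.22, 1.39, 1.35 and 1.40 and limma adjusted p of 0.0462, 0.0314, 0.049 and 0.0301, where the range over its 20 alternatives was 0.0301 to 1. At the deposited scale, the Cd79a level in the AdVEGF group, 0.772 ± 0.374 RPKM (SD, n = 5), was below the Cd79b level there, although both chains are needed for the receptor.

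Ms4a1 encodes CD20, a tetraspanning surface protein of B cells from the pre-B stage to the mature cell. Its values were 0, 0.543, 0.434, 0.362 and 0.339 RPKM in AdCMV mice 1 to 5, from 0 to 15 reads, and 1.22, 2.04, 0.611, 1.5 and 0.798 RPKM in AdVEGF mice 1 to 5, from 7 to 31 reads. AdCMV replicate 1 had no read, and the lowest AdVEGF mouse, replicate 3, was just above the highest AdCMV mouse, replicate 2. The log2 fold change was 1.74 (standard error 0.49, limma adjusted p = 0.0161), and the exact permutation test gave p = 0.00794 (two-sided, n = 5 each). With median-ratio scaling it was 1.45, at a limma adjusted p of 0.0623, and AdVEGF replicate 3 fell below AdCMV replicates 2 and 4. The call was also lost without AdVEGF replicate 2 (log2 fold change 1.54, limma adjusted p = 0.0503). The limma adjusted p over all its 21 alternatives ranged from 0.00309 to 0.917. The transcript 4930526L06Rik, on the opposite strand, spans the whole of Ms4a1 in the table; it had 5 reads in all AdCMV and 10 in all AdVEGF libraries, and whether reads were counted by strand is not given in the sources used here.

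Cd22, a sialic acid binding receptor that restrains signalling through the antigen receptor, did not pass the test. It was at 0.908, 0.581, 0.994, 0.724 and 0.658 RPKM in AdCMV mice 1 to 5 and at 1.67, 1.16, 0.903, 0.746 and 1.16 RPKM in AdVEGF mice 1 to 5. AdVEGF replicates 3 and 4 lay inside the AdCMV range and the other 3 above it. The log2 fold change was 0.47 (standard error 0.30, limma adjusted p = 0.25) and 0.11 (standard error 0.26, limma adjusted p = 0.806) after median-ratio scaling, with an exact permutation p of 0.0635 (two-sided, n = 5 each) for the deposited RPKM. Cd22 had 130 reads over the AdCMV and 146 over the AdVEGF libraries, more in each group than the 30 and 123 reads of Cd79b.

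Blnk is the adaptor that the kinase Syk phosphorylates after the receptor is engaged; myeloid cells express it too. It was at 1.33, 1.39, 1.16, 0.561 and 0.919 RPKM in AdCMV mice 1 to 5, from 11 to 39 reads. In AdVEGF mice 1 to 5 it was at 1.89, 2.85, 4.99, 2.60 and 2.36 RPKM, from 22 to 58 reads. The groups did not overlap; AdVEGF replicate 3 was the highest and AdCMV replicate 4 the lowest. The log2 fold change was 1.36 (standard error 0.30, limma adjusted p = 0.00361; exact permutation p = 0.00794, two-sided, n = 5 each). After median-ratio scaling it was 0.98 (standard error 0.27, limma adjusted p = 0.0186), under the fold threshold, and AdVEGF replicate 1 fell between the AdCMV values. Blnk was called in each of the 10 fits that left out 1 mouse, with log2 fold changes from 1.15 to 1.49.

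The transcription factors Pax5 and Ebf1 were at the limit of detection and were not tested. Pax5 had no read in any of the 5 AdCMV mice, 2 reads in AdVEGF replicate 1, 1 read in AdVEGF replicate 5 and none in AdVEGF replicates 2, 3 and 4, so both groups are at or under the floor of 3 reads per library and no fold is given. Ebf1 was at 0.027, 0, 0.024, 0 and 0.033 RPKM in AdCMV mice 1 to 5 and at 0.103, 0.104, 0, 0.024 and 0.086 RPKM in AdVEGF mice 1 to 5. That is 3 reads in all AdCMV and 11 in all AdVEGF libraries, a ratio per mapped tag of 4.79 (95% interval 1.27 to 26.8, exact conditional binomial), and AdVEGF replicate 3 had none. The exact permutation test gave p = 0.444 for Pax5 and p = 0.143 for Ebf1 (two-sided, n = 5 each). Without the filter on RPKM both entered limma, with adjusted p of 0.245 and 0.243. For Ebf1 the interval of the read ratio, which covers counting error only, lies above 1, while limma and the permutation test did not pass, and Pax5 is too low to size a difference.

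Ordered by mean level, which RPKM gives per transcript length, the AdCMV group had Blnk (1.07 ± 0.339 RPKM), Cd22 (0.773 ± 0.173), Cd79b (0.513 ± 0.260), Ms4a1 (0.336 ± 0.204), Cd79a (0.275 ± 0.154), Ebf1 (0.0168 ± 0.0157) and Pax5 (0). In the AdVEGF group the order was Cd79b (3.15 ± 1.54 RPKM), Blnk (2.94 ± 1.20), Ms4a1 (1.23 ± 0.569), Cd22 (1.13 ± 0.349), Cd79a (0.772 ± 0.374), Pax5 (0.0844 ± 0.131) and Ebf1 (0.0634 ± 0.0482). All are mean ± SD of 5 mice. The ranges of mean ± SD of neighbours in either order overlapped, other than between Cd79a and the transcription factor that follows it in each group and between Ebf1 and Pax5 in the AdCMV group, which is 3 reads against 0. Every AdVEGF value lay above every AdCMV value for 3 of the 5 genes tested, a pattern that 14.3% of all genes tested had, and for 1 of the 5 after median-ratio scaling, where 10.6% of all genes had it; the latter count was added after the data had been seen.

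**Figure D2:**
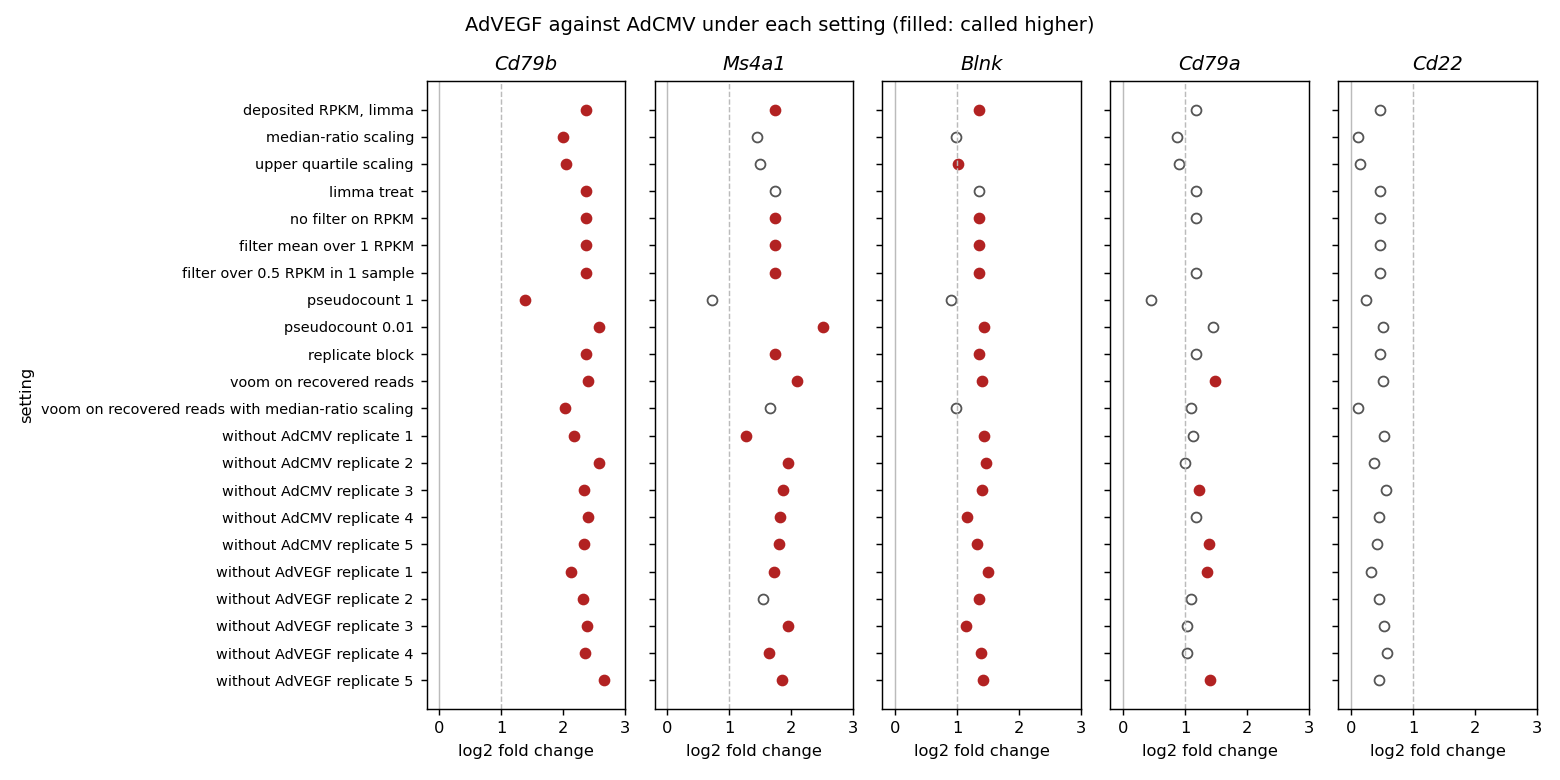
Log2 fold change (AdVEGF against AdCMV) of the 5 genes that passed the filter under each setting, filled where the gene was called higher; dashed lines mark a log2 fold change of 1. Cd79b is filled throughout and Cd22 nowhere, while Ms4a1 and Blnk are open after median-ratio scaling; Cd79a has no point where it failed the filter on a mean over 1 RPKM.

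The genes lie on 4 chromosomes of the mm9 build that the submitters' processing notes name. Cd79a (RefSeq transcript of 1320 bases, chr7:25682530-25687216) and Cd22 (3956 bases, chr7:31650423-31664047) share chromosome 7, Cd79b (1190 bases, chr11:106172655-106175843) and Ebf1 (5188 bases, chr11:44431602-44821598) share chromosome 11, and Ms4a1 (2048 bases, chr19:11325093-11340641) and Blnk (2078 bases, chr19:41003417-41069025) share chromosome 19, each pair megabases apart. Pax5 (1196 bases, chr4:44544378-44723312) lies on chromosome 4. The 3 called genes lie on chromosomes 11 and 19.

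Promoter windows were available from RefSeq (build GRCm38.p6) for 5 of the 7 genes, with Ebf1 represented by 2 starts, and were searched on both strands over the 250 bases before the start for 4 motifs of B cell regulators. These are CCCNNGGG (the core of the EBF1 site), ATGCAAAT (the octamer), CAGGTG (an E-box of E proteins) and GAGGAAGT (a PU.1 site). The E-box letters were in 3 of the 6 windows (Cd79a, Cd22 and Blnk), against 17.2% of all 32851 promoter windows of that length; the octamer was in 1 (Blnk) against 1.6%, the EBF1 core in 1 (Cd22) against 11.8%, and the PU.1 site in 0 against 2.44%. The 3 windows with a match are shown 5′ to 3′ on the strand of the gene, with the matched letters in capitals, because they belong to 1 gene that was called higher (Blnk), 1 just short of the threshold (Cd79a) and 1 that did not pass (Cd22). They are chr19:40994222-40994471 (minus strand) for Blnk, chr7:24897247-24897496 (plus strand) for Cd79a and chr7:30879029-30879278 (minus strand) for Cd22.
Blnk: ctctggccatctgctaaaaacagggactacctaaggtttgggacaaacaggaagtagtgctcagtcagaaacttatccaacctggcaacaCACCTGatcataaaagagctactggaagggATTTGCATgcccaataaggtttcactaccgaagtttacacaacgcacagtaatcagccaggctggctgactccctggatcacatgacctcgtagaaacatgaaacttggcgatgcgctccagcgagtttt
Cd79a: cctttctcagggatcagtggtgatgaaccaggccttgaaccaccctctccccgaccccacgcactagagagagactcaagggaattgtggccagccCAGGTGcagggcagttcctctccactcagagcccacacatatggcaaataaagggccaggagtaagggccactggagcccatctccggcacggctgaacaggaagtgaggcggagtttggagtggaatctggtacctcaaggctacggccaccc
Cd22: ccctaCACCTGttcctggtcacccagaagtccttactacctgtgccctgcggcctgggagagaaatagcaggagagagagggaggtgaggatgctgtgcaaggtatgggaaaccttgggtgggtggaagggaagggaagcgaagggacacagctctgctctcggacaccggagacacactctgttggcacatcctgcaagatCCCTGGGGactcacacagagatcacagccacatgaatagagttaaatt
In Blnk the E-box (as CACCTG, its reverse complement) begins 160 bases and the octamer (as ATTTGCAT) 130 bases before the start. In Cd79a the E-box begins 154 bases before it. In Cd22 the E-box begins 245 bases and the EBF1 core 48 bases before it. No match overlaps another, and a match describes letters in a window, not a bound site.

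Other surface genes of mature B cells were followed in a list of 15 genes, 9 of which passed the filter. Of these, 4 were called higher and 0 lower (0 at an unadjusted p under 0.05 and 0 with voom), and the median log2 fold change was 0.94 beside 0.38 for all genes tested. They were Cd37, a tetraspanin (1.62, limma adjusted p = 0.0165), Fcmr, the receptor for IgM (1.47, 0.018), Fcrla, an Fc receptor like protein (1.43, 0.025), and H2-Ob, a chain of the class II accessory molecule H2-O (1.16, 0.0341). After median-ratio scaling Cd37 (1.30, limma adjusted p = 0.0344) and Fcmr (1.18, 0.0456) were called, and Fcrla (1.12, 0.0697) and H2-Ob (0.85, 0.0623) were not. Fcmr, Fcrla and H2-Ob passed the filter through the AdVEGF group alone, so the count and the median of this list lean upward. Of the other genes tested besides Cd37, Cxcr5 was at 0.94, Cd72 at 0.53 and Fcer2a at 0.40, and Cd40 and Cd180 lay below 0. Cd37 overlapped between the groups, since AdCMV replicates 3 and 5 reached 1.25 and 1.43 RPKM and AdVEGF replicate 4 was at 1.31 RPKM. Fcrla overlapped too, with AdVEGF replicate 3 at 0.216 RPKM and AdCMV replicate 2 at 0.269 RPKM. So did Fcmr, with AdVEGF replicate 3 at 0.362 RPKM and AdCMV replicate 3 at 0.428 RPKM.

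The list also held genes without that pattern. Cd40 (-0.53, limma adjusted p = 0.179) and Cd180 (-0.58, 0.281) had log2 fold changes below 0 and were not called, also after median-ratio scaling (-0.90, 0.0114 and -0.94, 0.0596). The most abundant gene, Fcer2a (CD23, the low affinity IgE receptor), was at 11.5 to 19.5 RPKM in AdCMV mice and 16.5 to 27.3 RPKM in AdVEGF mice, with overlapping groups and a fold change of 0.40 on the log2 scale (limma adjusted p = 0.176) that turned to -0.01 after median-ratio scaling. Whether all reads counted for Fcer2a come from this gene was not tested. The summed level of the list, most of it Fcer2a, was 28.5 ± 5.30 RPKM in the AdCMV and 39.2 ± 8.04 RPKM in the AdVEGF group (SD, n = 5 each). The count depends on single libraries: it was 1 without AdCMV replicate 1 or AdCMV replicate 4 and 2 without AdVEGF replicate 1 or AdVEGF replicate 2.

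**Figure D3:**
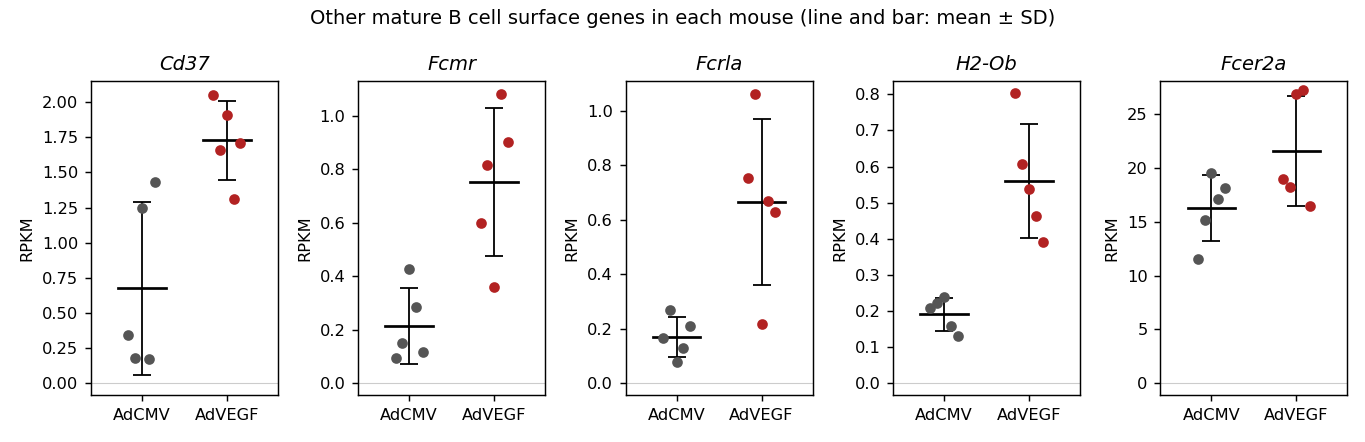
RPKM in each mouse (points, replicates 1 to 5 from left to right), mean (line) and SD (bar, n = 5) of the 4 other surface genes called higher and of Fcer2a, the most abundant of the list. H2-Ob does not overlap between the groups, and Fcer2a lies between 11.5 and 27.3 RPKM in both.

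Downstream of the receptor, 13 of 15 signalling genes passed the filter, 2 were called higher, where 13.0% of all genes tested were, and 0 lower, and the median log2 fold change was 0.63. Bank1, a B cell scaffold protein, was at 1.17 ± 0.436 RPKM in the AdCMV and 3.84 ± 0.971 RPKM in the AdVEGF group (SD, n = 5 each) and was the only member of the list other than Rasgrp3 to be called, by 1.68 on the log2 scale (limma adjusted p = 0.000401) and 1.31 after median-ratio scaling (0.00138). Its lowest AdVEGF mouse, replicate 4 with 2.78 RPKM, was above its highest AdCMV mice, replicates 2 and 5 with 1.56 RPKM. Rasgrp3, a Ras activator that endothelial cells also express, went from 1.94 ± 0.453 to 17.1 ± 2.22 RPKM (SD, n = 5 each; log2 fold change 3.10, limma adjusted p = 3.04e-08). The most abundant gene, the broadly expressed adaptor Grb2, gave a log2 difference of 0.20 (limma adjusted p = 0.465), which became -0.20 after median-ratio scaling.

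Among 14 transcription regulators of the B lineage, 11 passed the filter, and 2 were called higher, where 13.0% of all genes tested were, and 0 lower. The median log2 fold change was 0.50, beside 0.38 for all genes tested. Tcf3, which encodes the E2A proteins and is transcribed in many tissues, rose from 3.01 ± 0.968 to 8.24 ± 1.18 RPKM (SD, n = 5 each; log2 fold change 1.47, limma adjusted p = 0.000223). Id3, an inhibitor of E proteins and the most abundant gene of the list, rose from 105 ± 14.8 to 299 ± 60.9 RPKM (SD, n = 5 each; log2 fold change 1.49, limma adjusted p = 4.05e-05). Both were called after median-ratio scaling too (1.08 and 1.09).

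The list for pro-B and pre-B cells had 5 of 10 genes past the filter, 1 called higher, where 13.0% of all genes tested were, and 0 lower. Its median log2 fold change was 0.74. The called gene was its most abundant, Sox4, a transcription factor of many progenitor and stromal cells (0.898 ± 0.327 and 7.81 ± 0.856 RPKM, SD, n = 5 each; log2 fold change 3.04, limma adjusted p = 1.78e-07). Of the genes that define early B cells, 5 were at or near 0, the surrogate light chain genes Vpreb2 with 0 reads in all 10 mice and Igll1 with 0 reads in the AdCMV and 5 in the AdVEGF libraries, and the recombinase genes Rag1 with 1 and 2 reads and Rag2 with 2 and 9 reads, and Vpreb3 with 2 and 5 reads. Others had more reads: Dntt, the terminal transferase, was at 0.894 and 1.09 RPKM (0.21, limma adjusted p = 0.621), and Vpreb1, of the surrogate light chain too, at 0.162 and 0.51 RPKM (1.62, limma adjusted p = 0.0551), past the filter through the AdVEGF group alone. The ratio per mapped tag was 5.88 for Rag2 (95% interval 1.22 to 56.0, exact conditional binomial), with 5 of its 9 AdVEGF reads in 1 library, 3.27 for Vpreb3 (0.535 to 34.3) and 2.61 for Rag1 (0.136 to 154), the last 2 with intervals that include 1.

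Of the 7 plasma cell genes, 6 passed the filter and 1 was called higher, where 13.0% of all genes tested were. In this list 0 were called lower, and the median log2 fold change was 0.72. Prdm1, a repressor that drives plasma cell formation and is also made by other cell types, was at 0.554 ± 0.261 and 3.23 ± 0.879 RPKM (SD, n = 5 each; log2 fold change 2.39, limma adjusted p = 2.72e-05). Xbp1, the regulator of secretory capacity that hepatocytes make too, was the most abundant (0.34, limma adjusted p = 0.228, and -0.07 after median-ratio scaling). Tnfrsf17, the receptor BCMA of plasma cells, had 0 reads in the AdCMV and 2 in the AdVEGF libraries. Of 9 ligands for B cell survival and homing, 5 passed the filter and 1 was called higher, where 13.0% of all genes tested were. This was Tnfsf13 (APRIL), a survival factor of plasma cells, which went from 1.78 ± 0.350 to 5.10 ± 2.22 RPKM (SD, n = 5 each, log2 fold change 1.39, limma adjusted p = 0.00138). After median-ratio scaling it lay just under the fold threshold, at 1.00 (limma adjusted p = 0.0148). The median log2 fold change of this list was -0.09 with the deposited RPKM and -0.47 after that scaling. Its most abundant gene, the chemokine Cxcl12, gave a log2 difference of -0.09 (limma adjusted p = 0.779).

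MHC class II genes, which B cells share with macrophages and dendritic cells, were followed in a list of 9, while H2-Ob, called higher, was counted with the surface genes above. All 9 passed the filter, and 2 were called lower, where 1.54% of all genes tested were. In limma 0 were called higher, and also 0 at an unadjusted p under 0.05 and 0 with voom. The median log2 fold change was -0.67. The invariant chain Cd74, the most abundant, was at 132 ± 65.3 and 59.1 ± 22.4 RPKM (SD, n = 5 each; log2 fold change -1.11, limma adjusted p = 0.0174), and H2-Eb1 at 29.6 ± 13.4 and 13.7 ± 4.70 RPKM (-1.05, 0.0219). Both groups overlapped for these genes. AdCMV replicate 3 had the highest sum of the list, 533 RPKM, and without it, or without AdVEGF replicate 4, 0 were called. H2-Oa, the partner chain of H2-Ob, was the 1 gene of this list with a log2 fold change above 0 (0.74, limma adjusted p = 0.194), and it passed the filter through the AdVEGF group alone. After median-ratio scaling 4 were called lower, where 3.14% of all genes tested were. These were Cd74 (-1.51), H2-Eb1 (-1.45), H2-Ab1 (-1.34) and H2-Aa (-1.08), the last pair named after their values were seen.

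Lists of other leukocytes had calls in both directions. Of 8 pan-leukocyte genes, all tested, 1 was called higher, where 13.0% of all genes tested were. This was the phosphatase gene Ptpn18 (1.25, limma adjusted p = 0.00393, and 0.85 and not called after median-ratio scaling). The median log2 fold change was 0.34, beside 0.38 for all genes tested, and the most abundant gene was Cd52 (-0.18, limma adjusted p = 0.602). The sum of these genes was 157 ± 49.3 RPKM in the AdCMV and 163 ± 26.3 RPKM in the AdVEGF group (SD, n = 5 each). Of 16 T and NK cell markers, 12 passed the filter. In limma 0 were called higher, and also 0 at an unadjusted p under 0.05 and 0 with voom. Their median log2 fold change was -1.05, and 6 were called lower, where 1.54% of all genes tested were. These were the cytotoxic granule genes Prf1 (-2.10, limma adjusted p = 0.00714), Gzmb (-1.98, 0.00176) and Nkg7 (-1.29, 0.0147), and Cd3g (-1.48, 0.0291), Cd3e (-1.40, 0.0157) and Cd8a (-1.16, 0.0292) of the T cell receptor complex and its co-receptor. Prf1 passed the filter through the AdCMV group alone. Trat1 had 0 reads in all mice, and the most abundant gene, Cd8b1, gave a log2 difference of -0.13 (limma adjusted p = 0.696). The summed level of the T and NK list was 31.5, 34.8, 56.3, 18.6 and 48.7 RPKM in AdCMV mice 1 to 5 and 27.4, 21.3, 25.3, 18.5 and 15.6 RPKM in AdVEGF mice 1 to 5.

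Myeloid cells can express Blnk. Of 12 Kupffer cell and macrophage markers, all tested, 3 were called higher and 0 lower, with a median log2 fold change of 0.75: the Kupffer cell receptors Clec4f (2.15, limma adjusted p = 0.000205) and Vsig4 (2.14, 0.000109), and Csf1r, the receptor for the macrophage growth factor CSF1 (1.18, 0.00348; 0.78 and not called after median-ratio scaling). The most abundant, Cd5l, gave a log2 difference of 0.78 (limma adjusted p = 0.0236). The list summed to 176, 249, 243, 146 and 316 RPKM in AdCMV mice 1 to 5, and to 474, 392, 429, 343 and 307 RPKM in AdVEGF mice 1 to 5. Its part in the Blnk difference was not tested.

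Dendritic cell markers had 7 of 8 genes tested, 4 called higher and 0 lower, and a median log2 fold change of 1.12. These were the transcription factor Zbtb46 (2.14, limma adjusted p = 0.00207) and the lectin receptors Cd209a (1.66, 0.0229), Clec10a (1.26, 0.0113) and Clec9a (1.12, 0.0367). Of these, Zbtb46 and Cd209a were called after median-ratio scaling, and all but Clec9a passed the filter through the AdVEGF group alone. The count and the median of this list therefore lean upward. Which cells the Zbtb46 reads come from was not tested. Siglech, not called, was at 0.57 (limma adjusted p = 0.147). Itgax, the integrin CD11c, was at -0.62 (limma adjusted p = 0.183) and, after median-ratio scaling, at -0.99 (0.0125), not called in either. The most abundant, Xcr1, gave a log2 difference of 0.54 (limma adjusted p = 0.0797), and whether all its reads come from this gene was not tested. The list summed to 20.6 ± 4.54 and 31.5 ± 4.89 RPKM (SD, n = 5 each).

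Neutrophil markers had 9 of 9 genes in the table tested, 4 called higher and 0 lower, and a median log2 fold change of 0.56, also with Mpo at its lower bound. Those called encode granule proteins made by immature neutrophils, and all 4 passed the filter through the AdVEGF group alone, so the count and the median lean upward. The log2 fold changes of the genes not called ran from 0.15 (S100a9) to 0.56 (Csf3r). Mpo had 0 reads in all AdCMV mice and 9 to 92 reads in each AdVEGF mouse, which is at least 16.1-fold higher against a floor of 3 reads in each AdCMV library (limma adjusted p = 1.08e-05). Elane had 1 read in all AdCMV and 23 in all AdVEGF libraries, a ratio per mapped tag of 30.1 (95% interval 4.88 to 1240, exact conditional binomial), and Ngp and Camp had ratios of 15.0 (3.71 to 132) and 12.4 (3.00 to 110). After median-ratio scaling Camp was not called (1.94, limma adjusted p = 0.0805). The most abundant gene, S100a8, a product of mature neutrophils, gave a log2 difference of 0.24 (limma adjusted p = 0.78), which turned to -0.16 after median-ratio scaling. The list summed to 73.7 ± 39.0 and 105 ± 80.0 RPKM (SD, n = 5 each), and the higher AdVEGF mean rests on replicate 4 alone (244 RPKM), since the other AdVEGF mice were at 61.2, 98.7, 77.8 and 44.7 RPKM.

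Of the erythroid markers, which would mark blood left in the tissue, 6 of 8 were tested and 0 were called in either direction in limma (1 was higher and 0 lower at an unadjusted p under 0.05, and 1 was called higher with voom). Their median log2 fold change was -0.30, the most abundant, the globin gene Hba-a1, was at 785 ± 234 and 597 ± 336 RPKM (SD, n = 5 each), and the list summed to 1220 ± 337 and 961 ± 550 RPKM. Over the 15 lists with 0 genes called lower, 1 of 129 genes tested was lower at an unadjusted p under 0.05 and 0 were called lower with voom or with limma after median-ratio scaling, while voom with that scaling called 1 dendritic gene lower.

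Among vascular and mesenchymal genes, all 12 endothelial markers were called higher, with a median log2 fold change of 2.70, led by Cd34 (5.84), Emcn (5.33), Sox17 (3.67), Esam (3.17), Tie1 (3.02) and Kdr (2.78), with limma adjusted p from 2e-10 to 2.63e-06; the most abundant was Egfl7 (2.45), and Cd34 and Sox17 passed the filter through the AdVEGF group alone. Of 14 stellate and mesenchymal markers, 12 were called higher, with a median of 1.78, led by Acta2 (3.91), Col1a1 (3.51), Col3a1 (3.10), Ngfr (2.43), Pdgfrb (2.19) and Des (1.89); the most abundant, Dcn, was at 0.84 and not called. The endothelial list summed to 55.3 ± 16.7 RPKM in the AdCMV and 377 ± 35.7 RPKM in the AdVEGF group, and the stellate and mesenchymal list to 110 ± 24.6 and 351 ± 73.6 RPKM (SD, n = 5 each). Of 7 hepatocyte markers in the table, all tested, 3 were called higher, Ahsg (1.67), Apoa1 (1.17) and Alb (1.14), with a median of 0.42; after median-ratio scaling Ahsg alone was called.

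**Figure D4:**
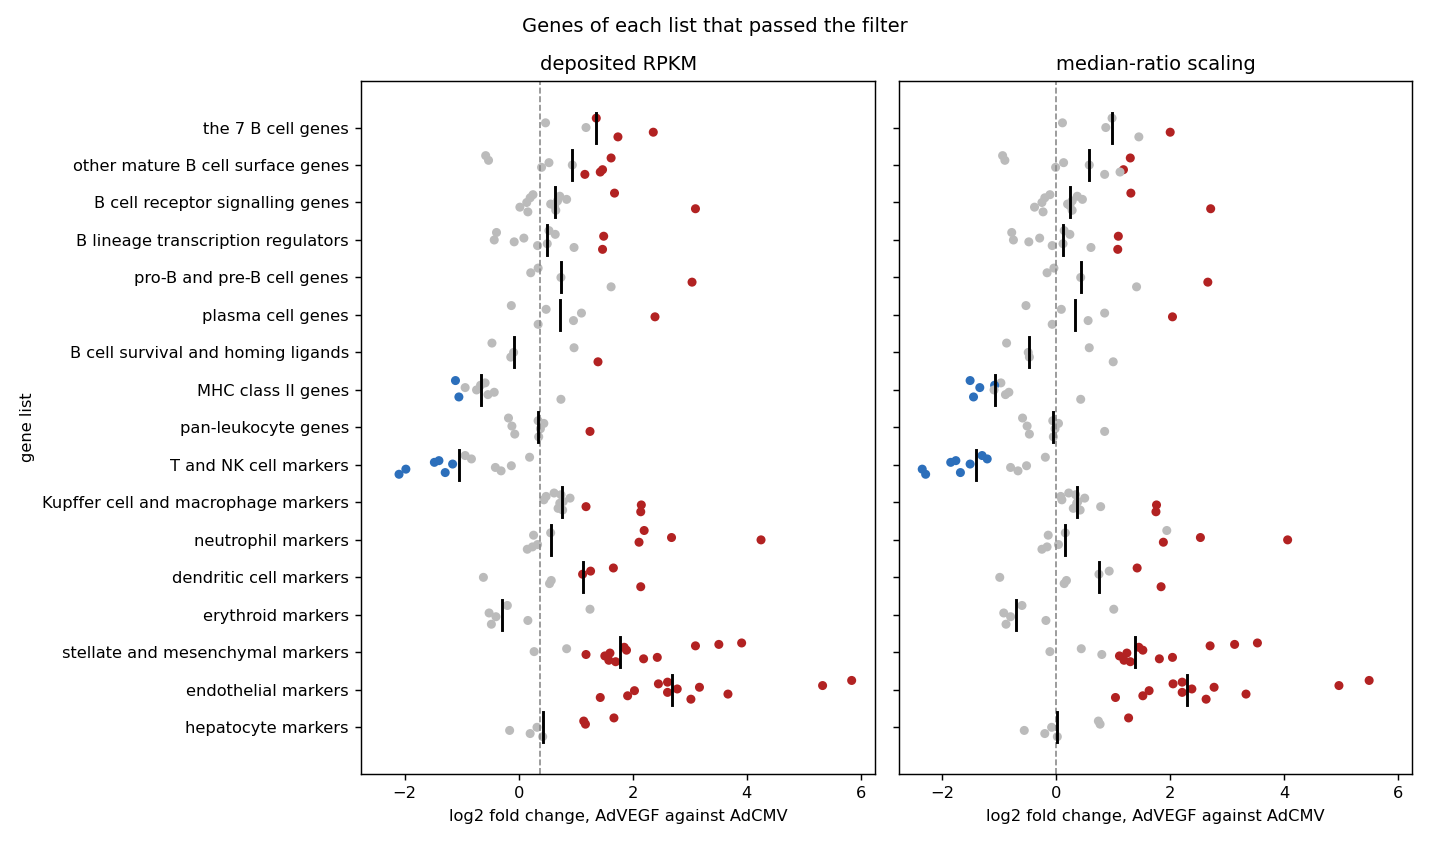
Log2 fold change (AdVEGF against AdCMV) of every gene that passed the filter, by list, with the deposited RPKM (left) and after median-ratio scaling (right); red points were called higher, blue points lower, grey points neither, black ticks are list medians and the dashed line is the median of all genes tested. The 7 B cell genes have a median of 1.36 over the 5 tested, T and NK cell markers one of -1.05 and endothelial markers one of 2.70. List medians include genes that passed the filter through only the AdVEGF or only the AdCMV group.

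Likeness between the 5 members that passed the filter was described with and without the group difference. Over the 10 mice, Pearson's r between a member and the mean of the other 4, on standardised log2(RPKM + 0.1), ran from 0.415 (Cd22) to 0.889 (Cd79b), a description that holds the difference between the groups, and after median-ratio scaling from -0.0993 (Cd22) to 0.875 (Cd79b). With group means subtracted it ran from -0.436 (Cd22) to 0.285 (Cd79b) with the deposited RPKM and from -0.553 (Cd22) to 0.36 (Cd79b) after that scaling, and with 0 to 58 reads behind each value such correlations are no finding and do not exclude shared variation. The genes most like the mean of the 5 members over all 10 mice, among 13928 other genes, were Nrp1 (r = 0.991), Olfml3 (0.991), Ccdc80 (0.99), Marcksl1 (0.989), Gm11747 (0.989), Tcf21 (0.989), Eps8 (0.986) and Klhl23 (0.986), all called higher, with log2 fold changes from 1.41 (Eps8) to 2.57 (Tcf21). With group means subtracted they were Cpxm1 (0.958), Wdr53 (0.938), F13a1 (0.937), Akt2 (0.933), Olfml3 (0.931), Nsa2 (0.93), Zfp326 (0.93) and Fam133b (0.929), so Olfml3 alone was in both. Of the first 8, Nrp1 and Gm11747 were also among the 8 after median-ratio scaling. Of the 8 with group means subtracted, Akt2 and Wdr53 were. Olfml3 was in neither list after that scaling. These ranks describe 10 libraries whose depth and composition also differed within a group. In AdCMV mice, for example, the Mup genes took 18.0% to 50.5% of the reads.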

How the data were processed

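Liver RNA of 10 mice was compared, 5 per group, with groups taken from the sample labels, which call the mice biological replicates. The authors deposited RPKM values for 24016 RefSeq transcripts; the submitters' processing notes name TopHat, HOMER and the mm9 build. The table also holds the authors' own log fold change and FDR per transcript, which were not used. The 5 rows without a symbol, at most 0.00534% of a library's reads, were left out. Reads and mapped tags were recovered from the steps of the RPKM values.

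Starting from the deposited RPKM, limma 3.58.1 (R 4.3.3; lmFit, eBayes with a trend) was fitted on log2(RPKM + 0.1) over all genes with a mean above 0.5 RPKM in a group, with Benjamini-Hochberg adjustment; the script was tested on simulated data. Single members were compared by exact permutation of mean RPKM over all 252 groupings (Python 3.11.15, numpy 2.4.6, scipy 1.17.1). Alternatives were other scalings, filters and pseudocounts, treat, voom, a replicate block, and fits without each mouse in turn.

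The 7 members and 16 further lists were chosen with earlier results of these data known; 1 gene planned for the list of other surface genes is not reported here, and the list was counted without it. Named genes were the members, in each list those called (at most 6, by size) and the most abundant, and the 8 genes most correlated with the members, over all mice and within groups. Other genes were named after their values were seen.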

Additional observations from a re-analysis of the deposited data

Results flagged for a closer look

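The summed RPKM of the neutrophil markers in AdVEGF replicate 4 stood apart from the other AdVEGF mice, at 244 RPKM where the next highest was at 98.7 RPKM, a gap of 0.729 of the range of the group. It was the 1 such value among 47 groups of 5 examined (the members and the summed lists), and chance alone gives about 1 in 20. None of the 7 B cell genes had such a value in either group.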

How the results depend on the processing

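Of 104 log2 fold changes of single members under the alternatives, 89 kept their direction and their side of the threshold, 10 lost the call, 5 gained it and 0 reversed. Cd79b was called and Cd22 was not under all alternatives run; 0 members were called lower under any of them. Cd79a could not be tested with a filter on a mean over 1 RPKM. The count of members called higher (3) was 1 with median-ratio scaling, treat, a pseudocount of 1 and voom with median-ratio scaling. Ms4a1 lost its call at 1.45 (median-ratio), 1.49 (upper quartile), 1.74 (treat), 0.72 (pseudocount 1) and 1.66 (voom with median-ratio scaling), and Blnk at 0.98 (median-ratio), 1.36 (treat), 0.90 (pseudocount 1) and 0.99 (voom with median-ratio scaling). Cd79a was called with voom (1.48). With 1 mouse left out, fold changes ranged from 1.00 to 1.40 for Cd79a and from 1.27 to 1.94 for Ms4a1, and the count of members called from 2 to 4. Added after the data had been seen, median-ratio scaling gave an exact p of 0.0635 for Cd79a and 1 member without overlap. The cause of these changes was not tested; treat asks for more by construction.

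Of all genes, 1082 higher and 438 lower were called with median-ratio scaling, 1125 and 393 with upper quartile scaling, 503 and 36 with treat, 1135 and 477 with voom and median-ratio scaling, and 954 higher with a pseudocount of 1. With 1 mouse left out, 1425 (without AdCMV replicate 4) to 2357 (without AdCMV replicate 3) were higher.

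Of 672 counts of the other lists, 604 stayed within 1.5 times. Median-ratio scaling gave 2 surface genes, 0 ligands, 0 pan-leukocyte, 2 dendritic and 1 hepatocyte gene higher and 4 MHC class II genes lower, and upper quartile scaling 2 surface, 0 pan-leukocyte, 2 dendritic and 1 hepatocyte gene higher and 4 MHC class II genes lower. Treat left 0 surface, 1 signalling, 0 transcription regulator, 0 ligand, 0 pan-leukocyte, 1 neutrophil, 0 dendritic, 7 stellate and 0 hepatocyte genes higher, and 0 MHC class II and 0 T and NK genes lower. A filter on a mean over 1 RPKM left 1 surface, 1 neutrophil and 2 dendritic genes higher. A pseudocount of 1 left 0 surface, 1 neutrophil and 1 dendritic gene higher, and 1 MHC class II and 2 T and NK genes lower. Voom with median-ratio scaling gave 2 surface, 0 pan-leukocyte and 1 hepatocyte gene higher, and 5 MHC class II and 1 dendritic gene lower. A pseudocount of 0.01 gave 2 pro-B and pre-B genes higher; voom gave 2 ligands and 1 erythroid gene higher, and no filter, or one over 0.5 RPKM in 1 sample, gave 1 erythroid gene. With 1 mouse left out, the counts higher were 1 to 5 for surface genes, 1 to 2 for pro-B and pre-B, plasma cell and ligand genes, 0 to 1 for pan-leukocyte and erythroid genes, 3 to 5 for Kupffer cell, and 2 to 4 for neutrophil and dendritic markers, and 0 to 3 MHC class II genes were lower.

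Mice of the same number deviated together with r from 0.008 to 0.291, over 0.1 in 2 of 5 pairs. Pairs of other numbers ran from -0.349 to 0.226, and 3 of 5 AdCMV mice correlated best with their own number. The main fit did not pair the mice by number, and these values do not settle whether the numbers mark pairs. With the replicate block, 3 members, 1933 of all genes and 2 pro-B and pre-B genes were higher and 256 of all genes lower.

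Depth limits the members: Pax5 and Ebf1 had at most 4 reads in any library and Cd79a at most 12, and a difference in these cannot be sized well.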
